A study of Homo sapiens with 6 samples.

Results

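The mitochondrial ribosomal proteins were followed here at the RNA level as all probe sets that the platform annotation gives a single gene symbol beginning with MRPL or MRPS and a number. The rule found 142 probe sets of 54675, for 77 symbols, of which 75 are protein-coding genes, MRPL20-AS1 is an antisense RNA and MRPL45P2 is a pseudogene. The RNA came from a human cell line of kidney origin that the labels do not name, and 6 one-colour oligonucleotide arrays were hybridised with it. The cells had been transfected with hIMP1 Dmut, hIMP1 wt or an empty vector (mock), and each group has 2 arrays that carry the replicate numbers 1 and 2. IMP1 binds RNA in the cytoplasm and is encoded by IGF2BP1. The labels say neither what Dmut stands for nor whether the 2 arrays of a group are separate cultures, so p-values measure a spread that may be technical. They give no time after transfection.

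Mitochondria carry ribosomes of their own, which translate the few mRNAs of the mitochondrial genome into membrane subunits of the respiratory chain and ATP synthase. Their RNAs come from the mitochondrial genome, while every protein of the small subunit (MRPS genes) and of the large subunit (MRPL genes) is encoded in the nucleus, made in the cytosol and imported. Some of these proteins descend from those of the bacterial ribosome and others are found only in mitochondrial ribosomes. MRPS18A and MRPS30 carry small-subunit names but sit in the large subunit, and they were counted there.

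Each probe set had 1 linear intensity on each array. Each array had a trimmed mean of 150.02, with 2% taken off each end. Array medians differed: the highest was 33.7 on hIMP1 Dmut array 2. The lowest were 26.7 on hIMP1 wt array 2 and 28.6 on mock array 2. IGF2BP1, the gene of the transfected protein, was measured by 3 probe sets, and on each of them the groups of arrays overlapped. The brightest read 266 and 288 in hIMP1 Dmut, 226 and 326 in hIMP1 wt and 231 and 307 in mock. Another read 248 and 150 in hIMP1 Dmut, 253 and 137 in hIMP1 wt and 188 and 93.2 in mock, with both constructs above mock within each number and log2 differences of 0.51 ± 0.39 for hIMP1 Dmut and 0.46 ± 0.39 for hIMP1 wt. Whether these probes can detect the transfected construct is not given in the sources used here. Of 8 kidney epithelial markers 5 passed the filter on dim probe sets described below. KRT18, a keratin of simple epithelia, lay between 1149 and 1356, while CDH16, a kidney cadherin, was below the filter. Of 14 measured markers of blood cells, fibroblasts and endothelium 4 passed, namely HBB, CD3E, COL1A1 and PECAM1. PTPRC and CD14 of leukocytes stayed at or below 17.7 and 2.0, and CDH5 of endothelium at or below 5.2.

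The mitochondrial ribosomal protein probe sets were bright. Their median intensity was 652 and 592 on the hIMP1 Dmut arrays, 650 and 688 on the hIMP1 wt arrays and 663 and 707 on the mock arrays. Between 123 and 127 of the 142 lay above the median of their array. Probe sets were tested when their mean log2 value over all arrays reached the median of those means, 5.19. In this way 125 members were kept and 17 were not. Just outside lay a probe set of MRPS5 at 5.11, and just inside one of MRPL52 at 5.26. Taking for a gene the kept probe set of highest mean left 76 genes: 25 of the small subunit, 50 of the large subunit and MRPL20-AS1. MRPL45P2 was left without a kept probe set, its intensity being at most 11.4 on any array. Intensities of different probe sets are not comparable levels, because probes differ in affinity.

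The upstream sequences of 68 of the 77 genes were matched by gene identifier in RefSeq (GRCh38.p14), each with 250 bases before and 50 bases after the annotated start. Motifs were searched as exact letters on both strands. CCGGAAG, the core bound by ETS factors such as GABP, was present in 30 of the 68 genes (44.1%), against 12.2% of 27305 genes and 16.5% of 15843 protein-coding genes. AAGATGG, the core bound by YY1, was present in 23 (33.8%), against 7.11% of all and 7.90% of protein-coding genes. The NRF1 motif, GCGC and TGCGC with any 1 base between them, was present in 9 (13.2%), against 6.98% of all and 9.67% of protein-coding genes. The CCAAT box (CCAAT) was in 24 (35.3%), against 42.1% of protein-coding genes, TATAAA in 3 (4.41%), against 12.4%, and the E-box CACGTG in 9 (13.2%), against 10.9%. At least one of the ETS, YY1 and NRF1 motifs was held by 49 of the 68 genes. The end of the ETS motif and the start of the YY1 motif share the letters AAG, so a stretch could count for both. Of the 9 genes that hold both, 0 hold them with shared letters.

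The 150 bases before the start are shown for the 4 genes with the lowest (MRPL11, MRPL57, MRPL12, MRPL28) and the 4 with the highest (MRPL48, MRPL50, MRPL19, MRPL30) moderated statistic for hIMP1 Dmut against mock described below, each 5′ to 3′ in the direction of its gene, with ETS and NRF1 motifs in capitals.
MRPL11: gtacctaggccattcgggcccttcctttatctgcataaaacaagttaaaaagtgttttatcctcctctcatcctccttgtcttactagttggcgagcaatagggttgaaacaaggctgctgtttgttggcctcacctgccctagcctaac
MRPL57: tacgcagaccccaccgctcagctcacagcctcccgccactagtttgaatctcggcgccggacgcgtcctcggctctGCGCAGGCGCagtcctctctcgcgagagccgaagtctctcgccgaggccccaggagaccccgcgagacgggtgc
MRPL12: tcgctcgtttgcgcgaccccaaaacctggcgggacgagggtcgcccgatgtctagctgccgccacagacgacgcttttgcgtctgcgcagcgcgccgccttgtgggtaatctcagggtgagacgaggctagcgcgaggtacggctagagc
MRPL28: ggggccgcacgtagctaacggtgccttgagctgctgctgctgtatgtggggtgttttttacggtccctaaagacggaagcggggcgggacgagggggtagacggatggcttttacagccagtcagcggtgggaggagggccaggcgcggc
MRPL48: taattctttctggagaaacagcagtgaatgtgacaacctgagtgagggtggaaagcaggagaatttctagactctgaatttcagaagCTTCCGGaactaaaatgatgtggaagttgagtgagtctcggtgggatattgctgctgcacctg
MRPL50: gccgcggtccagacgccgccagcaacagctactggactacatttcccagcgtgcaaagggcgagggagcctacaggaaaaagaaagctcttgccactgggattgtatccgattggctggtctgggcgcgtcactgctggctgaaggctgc
MRPL19: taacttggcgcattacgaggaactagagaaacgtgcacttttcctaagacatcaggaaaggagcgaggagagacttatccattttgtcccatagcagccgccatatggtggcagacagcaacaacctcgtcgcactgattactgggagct
MRPL30: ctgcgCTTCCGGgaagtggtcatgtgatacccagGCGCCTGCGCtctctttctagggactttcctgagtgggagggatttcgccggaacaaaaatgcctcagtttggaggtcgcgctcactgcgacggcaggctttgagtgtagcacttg
In GRCh38.p14 they lie on the plus strand at chr13:21176508-21176657 (MRPL57), chr17:81703217-81703366 (MRPL12), chr11:73787724-73787873 (MRPL48), chr2:75646633-75646782 (MRPL19) and chr2:99181034-99181183 (MRPL30), and on the minus strand at chr11:66438849-66438998 (MRPL11), chr16:370539-370688 (MRPL28) and chr9:101398619-101398768 (MRPL50). MRPL57 holds an NRF1 motif that begins 74 bases before the start, on the reverse strand. MRPL48 holds a reversed ETS motif at 63 bases. MRPL30 holds a reversed ETS motif at 145 bases and an NRF1 motif at 116 bases. The other 5 genes, 3 at the low end and 2 at the high end, hold none of the ETS, YY1 and NRF1 letters in this window. The median change with hIMP1 Dmut against mock was −0.14 on the log2 scale over the 30 genes with the ETS motif and −0.13 over the 38 without it. For the YY1 motif the medians were −0.12 over 23 genes with it and −0.14 over 45 without it, and for the NRF1 motif −0.20 over 9 genes with it and −0.13 over 59 without it. These are descriptions, and a match is not a binding site.

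With hIMP1 Dmut, most mitochondrial ribosomal protein RNAs lay slightly below their level in mock cells, in both subunits. Of the 76 genes 66 were lower and 10 were higher, and the median log2 change was −0.13, with an interquartile range of −0.23 to −0.05 and extremes of −0.37 and 0.21. Over all 12269 genes, each at its brightest kept probe set, the median was −0.01 and 51.3% were lower. No single member passed the test: the lowest adjusted p over all kept members was 1.00 (limma, Benjamini-Hochberg over 27307 probe sets), and 2 probe sets of the whole array passed, which is 0.00732%. Also at an unadjusted p under 0.05 the count of members was 0, against 0.846% of probe sets higher and 0.571% lower. Members are not replicates of a condition, so the counts and medians describe these arrays.

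On 27 of the 76 genes (35.5%) both hIMP1 Dmut arrays lay below both mock arrays, against 12.0% of all genes. With each array scaled to the same median, 17 genes lay apart below, against 13.9% of all genes. On 1 gene, MRPL33, both lay above, against 11.2%. Over the 125 kept probe sets, 34 lay apart below and 7 apart above, against 11.0% and 12.6% of all kept probe sets. Without one probe set per gene the tilt was smaller: 93 of the 125 kept probe sets were lower, with a median of −0.10, and so were 100 of all 142, also with a median of −0.10. Among all 12269 genes, 1388 lay between the quartiles of the members' intensity, and of these 55.7% were lower, with a median of −0.02. Of the 38 members in that range 34 were lower, with a median of −0.14.

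**Figure D1:**
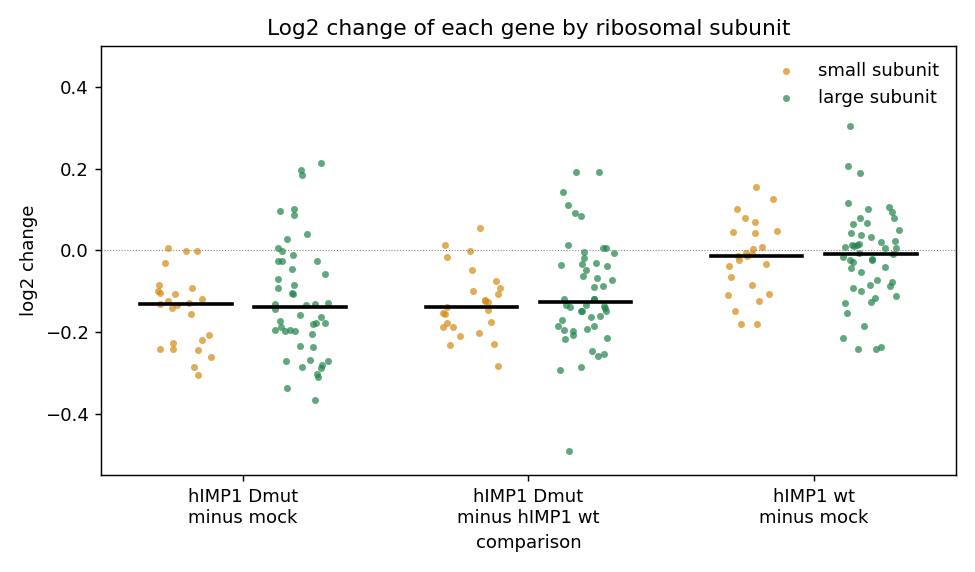
Log2 change of each mitochondrial ribosomal protein gene (points, brightest kept probe set) in hIMP1 Dmut minus mock, hIMP1 Dmut minus hIMP1 wt and hIMP1 wt minus mock, by subunit, with the median as a line. In hIMP1 Dmut minus mock 24 of 25 small-subunit and 41 of 50 large-subunit genes lie below 0, while hIMP1 wt minus mock is centred near 0.

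By subunit and by origin the medians lay between −0.12 and −0.15, and differences between these classes were not tested. In the small subunit 24 of 25 genes were lower, with a median of −0.13, and in the large subunit 41 of 50, with a median of −0.14. Proteins with bacterial relatives were lower in 14 of 15 small-subunit genes (median −0.12) and in 25 of 30 large-subunit genes (median −0.13). Proteins found only in mitochondrial ribosomes were lower in 10 of 10 small-subunit genes (median −0.14) and in 16 of 20 large-subunit genes (median −0.15). The genes on which both hIMP1 Dmut arrays lay below both mock arrays included MRPS5, MRPS7 and MRPS16 of the small subunit, all with bacterial relatives, and MRPS23, MRPS25, MRPS34 and MRPS35, which are particular to mitochondria.

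Much of this difference came from the arrays numbered 2. Within number 1, hIMP1 Dmut minus mock had a median of −0.03 over the 76 genes and 47 were lower. Within number 2 the median was −0.29 and 64 were lower. In the small subunit the medians were 0.01 within number 1 and −0.33 within number 2, and in the large subunit −0.06 and −0.25. Lower within both numbers were 38 of the 76 genes, against 23.2% of all genes, and higher within both were 3, against 22.2%. Without the second hIMP1 Dmut array the median over the kept probe sets was −0.04 in place of −0.10, and 49 of the 76 genes were lower. The share of all genes that were lower in that run is not given. The labels do not say what the number stands for.

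**Figure D2:**
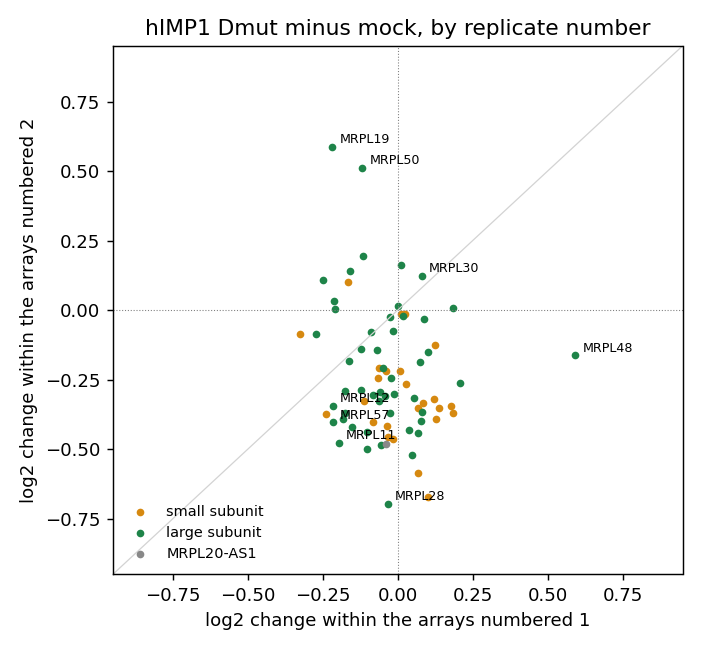
Log2 difference hIMP1 Dmut minus mock of each mitochondrial ribosomal protein gene within replicate number 1 (horizontal axis) and within number 2 (vertical axis). Of the 76 genes 64 lie below 0 on the vertical axis and 47 lie left of 0 on the horizontal axis.

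Relative to each gene's mean over all arrays, the median deviation was −0.03 and −0.12 on the hIMP1 Dmut arrays, −0.05 and 0.11 on the hIMP1 wt arrays and −0.0031 and 0.10 on the mock arrays, with number 1 before number 2. The second hIMP1 Dmut array was the lowest, and the second hIMP1 wt and mock arrays were the highest. Number 2 minus number 1 had a median of −0.12 within hIMP1 Dmut, 0.18 within hIMP1 wt and 0.10 within mock. These differences between arrays of the same group stand beside a median of −0.13 between hIMP1 Dmut and mock.

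**Figure D3:**
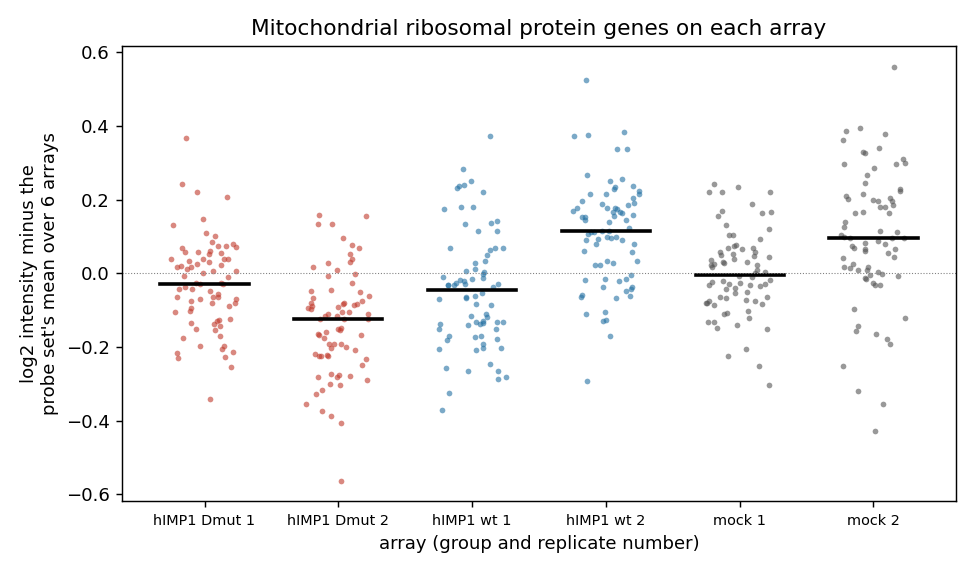
Deviation of each mitochondrial ribosomal protein gene from its own mean over the 6 arrays, on the log2 scale, for each array, with the median as a black line. The medians run from −0.12 on hIMP1 Dmut array 2 to 0.11 on hIMP1 wt array 2.

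The 4 genes with the lowest moderated statistic in hIMP1 Dmut against mock all encode large-subunit proteins. MRPL11, the relative of the bacterial protein at the site where translation factors bind, read 699 and 729 in hIMP1 Dmut, 818 and 887 in hIMP1 wt and 802 and 1018 in mock. Both hIMP1 Dmut arrays were the lowest, and the log2 change against mock was −0.34 ± 0.19 (SE, n = 2 each; unadjusted p = 0.0989 and adjusted p = 1.00, limma). MRPL12, the stalk protein that recruits those factors and also binds the mitochondrial RNA polymerase, read 1481 and 1287 in hIMP1 Dmut, 1501 and 1593 in hIMP1 wt and 1723 and 1636 in mock. Its hIMP1 Dmut arrays lay below all others, and the change was −0.28 ± 0.17. MRPL10, the protein that anchors the stalk, read 914 and 807 in hIMP1 Dmut, 910 and 803 in hIMP1 wt and 1034 and 990 in mock. For MRPL10 and MRPL12 both hIMP1 wt arrays also lay below both mock arrays. Arrays of hIMP1 Dmut apart below mock were found on 35.5% of the 76 genes and 12.0% of all genes. These 3 genes were named among many, so their lack of overlap is not read as a result about the stalk.

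MRPL57, a protein found only in mitochondrial ribosomes, read 1668 and 1574 in hIMP1 Dmut, 1663 and 2043 in hIMP1 wt and 1941 and 2085 in mock. The change against mock was −0.31 ± 0.17, with no overlap between hIMP1 Dmut and mock. Its other 3 kept probe sets did not share this value, with changes of 0.39, −0.49 and 0.03. MRPL28, a protein with a bacterial relative, read 802 and 713 in hIMP1 Dmut, 771 and 1116 in hIMP1 wt and 821 and 1162 in mock. Its change of −0.37 ± 0.23 was the lowest of the 76 genes, but it was −0.03 within number 1 and −0.70 within number 2.

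The 4 genes at the high end were also of the large subunit, and on each of them the hIMP1 Dmut and mock arrays overlapped. MRPL48, found only in mitochondrial ribosomes, read 870 and 628 in hIMP1 Dmut, 583 and 716 in hIMP1 wt and 574 and 704 in mock. One hIMP1 Dmut array stood above the other 5, and the change was 0.21 ± 0.22, with 0.59 within number 1, −0.16 within number 2 and −0.018 without the first hIMP1 Dmut array. MRPL50, also particular to mitochondria, read 613 and 637 in hIMP1 Dmut, 572 and 521 in hIMP1 wt and 666 and 445 in mock, a change of 0.20 ± 0.22. The mock arrays were the highest and the lowest of the 6, and without the second the change was −0.09.

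MRPL19, with a bacterial relative, read 1076 and 1182 in hIMP1 Dmut, 1109 and 1011 in hIMP1 wt and 1253 and 784 in mock, a change of 0.18 ± 0.23. The second mock array was the lowest, and without it the change was −0.15. A dimmer probe set of MRPL19 read 172 and 187 in hIMP1 Dmut, 175 and 177 in hIMP1 wt and 152 and 84.6 in mock, a change of 0.62 ± 0.28 (unadjusted p = 0.0539 and adjusted p = 1.00, limma). Here the arrays of both constructs lay above both mock arrays, while hIMP1 Dmut and hIMP1 wt overlapped. The change against mock was 0.17 within number 1 and 1.07 within number 2, and the second mock array was again the lowest. MRPL30, with a bacterial relative, read 1241 and 1431 in hIMP1 Dmut, 1279 and 1397 in hIMP1 wt and 1174 and 1312 in mock, a change of 0.10 ± 0.17. Within each number its hIMP1 Dmut array was the higher.

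**Figure D4:**
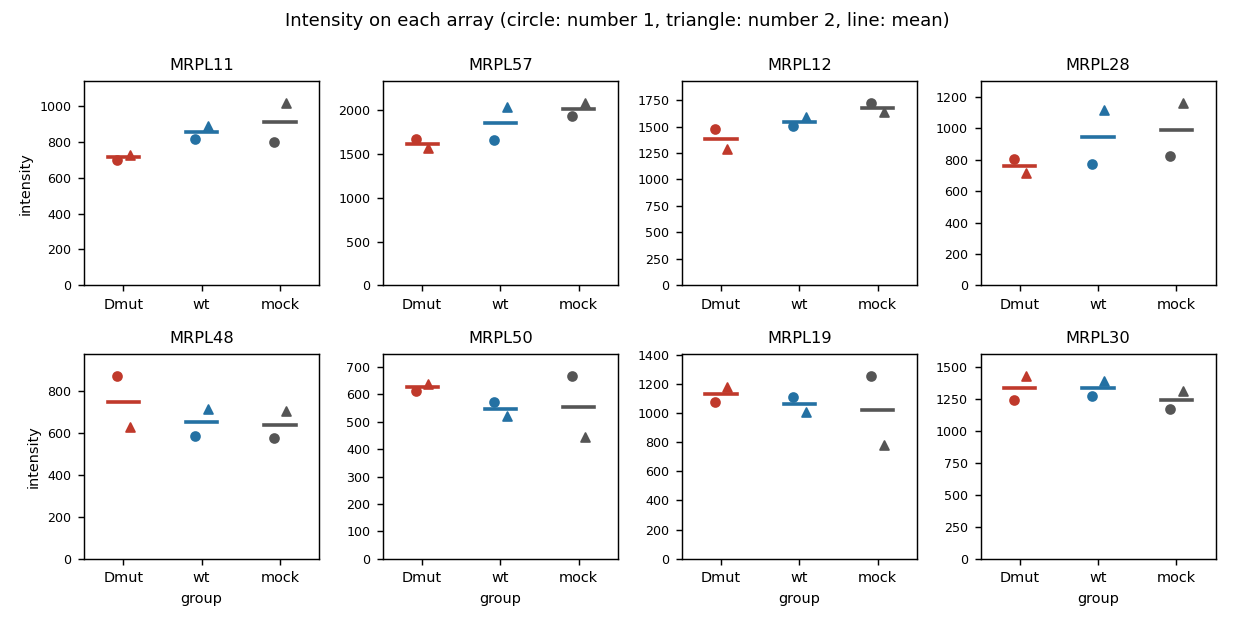
Intensity on each array of the 4 genes with the lowest (MRPL11, MRPL57, MRPL12, MRPL28) and the 4 with the highest (MRPL48, MRPL50, MRPL19, MRPL30) moderated statistic in hIMP1 Dmut against mock, with circles for number 1, triangles for number 2 and lines for group means. Both hIMP1 Dmut points lie below both mock points for the first set, and the groups overlap for the second.

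Against hIMP1 wt, the hIMP1 Dmut arrays again held most members slightly lower. Of the 76 genes 65 were lower and 11 higher, with a median of −0.13, against 47.6% lower and a median of 0.01 over all genes. The count was 23 of 25 in the small subunit, with a median of −0.14, and 41 of 50 in the large subunit, with a median of −0.13. Genes of like intensity also leaned lower: of the 1388 between the members' quartiles 61.7% were lower, with a median of −0.04. Of the 38 members in that range 32 were lower, with a median of −0.14. No member and no other probe set passed the test (0% of 27307, lowest adjusted p 1.00, limma). At an unadjusted p under 0.05 the count of members was also 0, against 0.861% of probe sets higher and 0.374% lower. The hIMP1 Dmut arrays lay below both hIMP1 wt arrays on 15 genes, against 8.75% of all genes, and above them on 3, against 12.0%. This comparison shares its hIMP1 Dmut arrays with the one against mock, so the counts do not add to each other.

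Within number 1 the median of hIMP1 Dmut minus hIMP1 wt was 0.01, and within number 2 it was −0.25. Lower within both numbers were 30 of the 76 genes, against 19.1% of all genes. Without the second hIMP1 Dmut array the median over the kept probe sets was −0.04 in place of −0.10. Without the second hIMP1 wt array 45 genes were lower, and the share of all genes in that run is not given.

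MRPL2, a protein of the region where peptide bonds are formed, had the lowest statistic against hIMP1 wt. It read 358 and 221 in hIMP1 Dmut, 432 and 370 in hIMP1 wt and 341 and 304 in mock. Against hIMP1 wt the change was −0.49 ± 0.25 (unadjusted p = 0.0768 and adjusted p = 1.00, limma), without overlap, while its other probe set gave −0.04. MRPL37, found only in mitochondrial ribosomes, read 1736 and 1466 in hIMP1 Dmut, 1949 and 1873 in hIMP1 wt and 1813 and 1843 in mock. Both hIMP1 Dmut arrays were the lowest of the 6, and the change was −0.26 ± 0.17.

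MRPL55, also found only in mitochondria, read 484 and 497 in hIMP1 Dmut, 552 and 650 in hIMP1 wt and 547 and 645 in mock, a change of −0.28 ± 0.19 against hIMP1 wt. Its hIMP1 Dmut arrays lay below the other 4. MRPS2, a small-subunit protein with a bacterial relative, read 849 and 650 in hIMP1 Dmut, 941 and 872 in hIMP1 wt and 1004 and 844 in mock, a change of −0.28 ± 0.20. It overlapped with mock but not with hIMP1 wt. At the high end stood MRPL50 (0.19 ± 0.22), MRPL48 (0.19 ± 0.22), MRPL20 (0.14 ± 0.17) and MRPL52 (0.11 ± 0.17), all of the large subunit, and of these the groups overlapped for MRPL48.

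With hIMP1 wt against mock, the members showed no common direction. Of the 76 genes 41 were lower and 35 higher, with a median of −0.01, against 53.5% lower and a median of −0.01 over all genes. The median was −0.05 within number 1 and 0.02 within number 2. On 6 genes both hIMP1 wt arrays lay below both mock arrays, against 11.0% of all genes, and on 4 above, against 8.67%. No member passed the test (lowest adjusted p 1.00, limma), and 2 probe sets of the array did (0.00732%). At an unadjusted p under 0.05, 1 member probe set was lower and 0 were higher, against 0.612% of probe sets lower and 0.417% higher. The count of lower genes was 20 without the first hIMP1 wt array and 25 without the second mock array. The shares of all genes in these 2 runs are not given, so these counts are not read further.

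A single member probe set had an unadjusted p under 0.05 in any comparison. It measures MRPS18C, a small-subunit protein with a bacterial relative, and it read 38.5 and 21.1 in hIMP1 Dmut, 24.2 and 14.2 in hIMP1 wt and 80.7 and 41.0 in mock. In hIMP1 wt against mock its change was −1.27 ± 0.44 (unadjusted p = 0.0169 and adjusted p = 1.00, limma). It lies close to the filter. The brightest probe set of the gene read 1023 and 843 in hIMP1 Dmut, 1088 and 985 in hIMP1 wt and 1014 and 850 in mock, a change of 0.15 ± 0.19.

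The other genes at the ends of hIMP1 wt against mock were of the large subunit. MRPL10 read 910 and 803 in hIMP1 wt, against 1034 and 990 in mock, a change of −0.24 ± 0.17, and its hIMP1 Dmut arrays were close to those of hIMP1 wt. MRPL20, with a bacterial relative, read 2628 and 2945 in hIMP1 wt, against 3523 and 2959 in mock, a change of −0.21 ± 0.17, and its hIMP1 Dmut arrays at 2962 and 3192 overlapped with mock. MRPL45, which holds the ribosome at the inner membrane, read 446 and 541 in hIMP1 wt, against 507 and 669 in mock, a change of −0.24 ± 0.21 with overlap. Its hIMP1 Dmut arrays read 502 and 540.

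MRPL21, with a bacterial relative, read 857 and 967 in hIMP1 wt, against 1022 and 1049 in mock, a change of −0.18 ± 0.18. It did not overlap, and its hIMP1 Dmut arrays at 845 and 987 were as low. At the other end, MRPL2 had a log2 difference of 0.30 ± 0.25 at the probe set given above. MRPL33, a small protein with a bacterial relative, read 2258 and 1887 in hIMP1 wt, against 1847 and 1734 in mock, a change of 0.21 ± 0.17, and 1860 and 1939 in hIMP1 Dmut. All 4 arrays with an hIMP1 construct lay above both mock arrays.

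The 3 MRPS18 paralogs descend from a single bacterial protein, and MRPS18B and MRPS18C belong to the small subunit while MRPS18A belongs to the large one. MRPS18A read 544 and 481 in hIMP1 Dmut, 640 and 504 in hIMP1 wt and 590 and 419 in mock, and in hIMP1 wt against mock the log2 difference was 0.19 ± 0.22 at this probe set (−0.053 without mock array 2) and −0.29 at its other one. MRPS18B read 1153 and 1041 in hIMP1 Dmut, 1146 and 1072 in hIMP1 wt and 1293 and 969 in mock. The arrays of the 3 groups overlapped for both paralogs. MRPS30, a large-subunit protein, read 1174 and 813 in hIMP1 Dmut, 1172 and 921 in hIMP1 wt and 1105 and 831 in mock, so it followed the replicate number more than the group. MRPS36 was not among the symbols found. MRPL20-AS1 read 147 and 177 in hIMP1 Dmut, 167 and 276 in hIMP1 wt and 152 and 250 in mock, with overlap.

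Probe sets of the same gene often differed in sign. Of the 29 genes with more than 1 kept probe set, 15 had a single sign in hIMP1 Dmut minus mock, 14 in hIMP1 Dmut minus hIMP1 wt and 10 in hIMP1 wt minus mock. Of the 19 genes with 3 or more probe sets on the array, MRPL41, particular to mitochondria, had kept values of −0.13, −0.10 and 0.01 in hIMP1 Dmut minus mock, the last at its dimmest. MRPL4, a protein with a bacterial relative, had −0.24, −0.19 and −0.08. MRPS10, at the head of the small subunit, had −0.09, −0.18 and −0.08, and MRPS22, particular to mitochondria, had −0.09, −0.09, −0.03 and −0.30. MRPS25, also particular to mitochondria, had −0.24, −0.08 and −0.13. These 4 kept a single sign.

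For other genes the brightest and the dimmer probe sets disagreed in hIMP1 Dmut minus mock. MRPL35, with a bacterial relative, gave −0.30, −0.15 and 0.35. MRPL42, found only in mitochondrial ribosomes, gave −0.13, 0.10 and 0.23, and MRPL43, another of that kind, gave −0.20, 0.05 and −0.24. MRPS12, the relative of the bacterial decoding-centre protein, gave −0.12, −0.19 and 0.23. MRPS31, particular to mitochondria, gave −0.14 and 0.31. MRPL30 had 5 values between −0.07 and 0.18, and MRPS15 had 4 between −0.33 and 0.15, with 0.01 at the brightest. In contrast, MRPL19 (0.18 to 0.62), MRPL50 (0.00 to 0.20) and MRPS30 (0.03 to 0.19) were above 0 at each kept probe set, though without mock array 2 the brightest gave −0.15 for MRPL19 and −0.09 for MRPL50, and MRPS5 gave −0.21 and −0.08. MRPL20 had a single kept probe set, at −0.07.

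Genes that serve the mitochondrial ribosome were read from lists written from general knowledge, and the genes named at the ends of a list have its lowest and highest moderated statistic. None of their members passed the test in any comparison (limma, Benjamini-Hochberg over 27307 probe sets). Of 87 measured genes 62 were lower in hIMP1 Dmut than in mock, with a median of −0.06, and 50 were lower than in hIMP1 wt, with a median of −0.02. Ribosome proteins with other names were lower in 4 of 6 (median −0.12), from DAP3, a small-subunit GTP-binding protein, at −0.26 ± 0.19 to NDUFAB1, the acyl carrier protein, at 0.12 ± 0.16. Assembly factors were lower in 20 of 25 (median −0.08), from METTL15, an rRNA methyltransferase, at −0.31 ± 0.26 to DDX28, an RNA helicase, at 0.29 ± 0.23. Mitochondrial aminoacyl-tRNA synthetases and their partners were lower in 14 of 18 (median −0.07), with HARS2 at −0.25 ± 0.20, SARS2 at 0.37 ± 0.26 and a lowest value of −0.31 ± 0.26 for PARS2.

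Translation factors were lower in 10 of 14 (median −0.04), from TACO1, a translational activator, at −0.18 ± 0.18 to MTRF1L, a release factor, at 0.10 ± 0.18. Genes that copy and process mitochondrial DNA and RNA were lower in 9 of 17 (median −0.0049). At their low end TEFM, the elongation factor of mitochondrial transcription, read 346 and 393 in hIMP1 Dmut, 514 and 461 in hIMP1 wt and 520 and 551 in mock. Its hIMP1 Dmut arrays were the lowest, with a change of −0.53 ± 0.19 (unadjusted p = 0.0185 and adjusted p = 1.00, limma). At their high end stood PRORP, the nuclease of mitochondrial RNase P, at 0.60 ± 0.39. Its probe set was dim, at 50.3 and 49.2 in hIMP1 Dmut, 26.3 and 54.8 in hIMP1 wt and 33.8 and 26.3 in mock. Nuclear regulators were lower in 5 of 7 (median −0.10), from NRF1 at −0.28 ± 0.22 to GABPA, a subunit of GABP, at 0.13 ± 0.23.

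In hIMP1 wt against mock the medians of these lists lay between −0.07 and 0.07. Their ends were PTCD3 (−0.15 ± 0.18) and NDUFAB1 (0.20 ± 0.16) for proteins with other names, ERAL1 (−0.24 ± 0.19) and RPUSD4 (0.23 ± 0.24) for assembly, and TACO1 (−0.28 ± 0.18) and TSFM (0.34 ± 0.22) for translation factors. For synthetases they were PARS2 (−0.33 ± 0.26) and GATC (0.29 ± 0.28), for mitochondrial DNA expression MTERF1 (−0.23 ± 0.28) and TFB2M (0.41 ± 0.30), and for regulators ESRRA (−0.24 ± 0.22) and NRF1 (−0.02 ± 0.22).

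Cytosolic ribosomal proteins and the subunits of respiratory complex I also had medians below 0 in hIMP1 Dmut against mock, with different patterns by replicate number. The cytosolic ribosomal list held 56 genes, of which 52 were below mock at a median of −0.08, which was 0.15 within number 1 and −0.28 within number 2. Within number 1, 7 of the 56 were lower, and within both numbers 5 were. On 1 cytosolic gene (1.79%) both hIMP1 Dmut arrays lay below both mock arrays, against 12.0% of all genes. Of 32 complex I genes 26 were lower, with a median of −0.15, −0.06 within number 1 and −0.25 within number 2. Lower within both numbers were 17 of them, and 7 (21.9%) lay apart below mock. The mitochondrial ribosomal proteins, at −0.13, lay between these lists, and a difference between the lists was not tested. In hIMP1 wt against mock 47 of the 56 cytosolic genes were lower, with a median of −0.07, and 20 of the 32 complex I genes, with a median of −0.03.

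**Figure D5:**
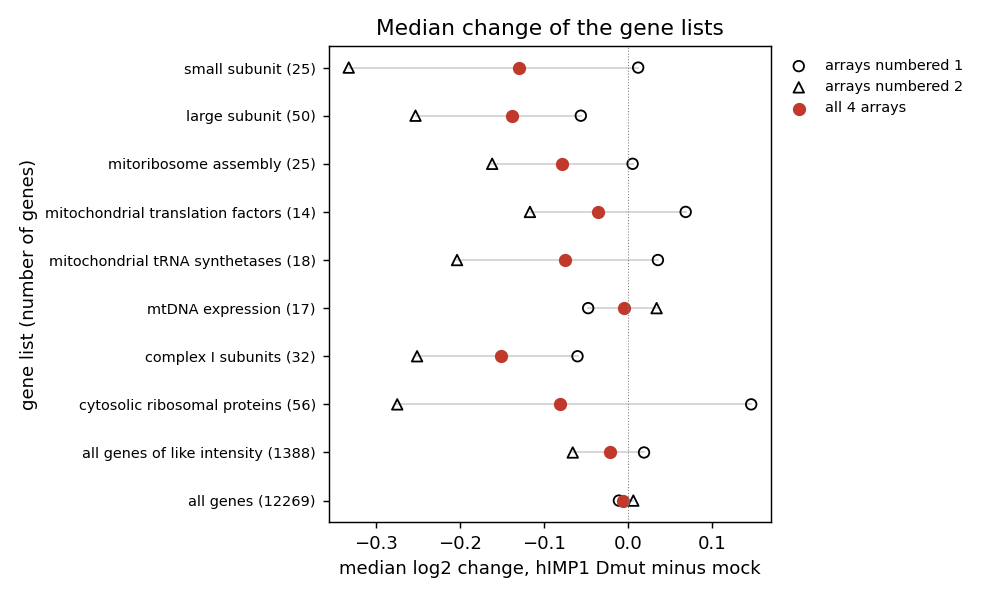
Median log2 change in hIMP1 Dmut minus mock (horizontal axis) of the 2 subunits, of pathway lists, complex I, cytosolic ribosomal proteins, genes of like intensity and all genes, as filled points, with circles for arrays numbered 1 and triangles for arrays numbered 2. The small subunit has a median of −0.13, with 0.01 for number 1 and −0.33 for number 2, while all genes lie near 0.

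Markers of other cells were mostly dim, though COL1A1 of fibroblasts read 87.2 to 166. The blood cell sums were highest in hIMP1 Dmut, but on HBB and CD3E, the kept blood markers, the groups overlapped in each comparison. The summed intensity of 4 blood cell markers was 119 to 124 in hIMP1 Dmut, 86.9 to 110 in hIMP1 wt and 75.9 to 110 in mock, with CD14 near 0. For 5 fibroblast markers it was 209 to 275 in hIMP1 Dmut, 140 to 234 in hIMP1 wt and 146 to 243 in mock. For 5 endothelial markers it was 89.9 to 93.6 in hIMP1 Dmut, 35.4 to 94.2 in hIMP1 wt and 63.6 to 85.2 in mock, with CDH5 near 0. PECAM1, the kept endothelial marker, read 53.6 and 53.6 in hIMP1 Dmut, 7.5 and 60.9 in hIMP1 wt and 39.3 and 40.1 in mock. Its hIMP1 Dmut arrays thus lay above both mock arrays but overlapped with hIMP1 wt. On COL1A1 the groups overlapped in each comparison. The 8 kidney epithelial markers summed to 2082 to 2218 in hIMP1 Dmut, 2069 to 2302 in hIMP1 wt and 2060 to 2170 in mock. KRT18, at 1149 to 1356, was the largest part of these sums. PAX8 read 206 and 287 in hIMP1 Dmut, 202 and 148 in hIMP1 wt and 177 and 157 in mock. Its hIMP1 Dmut arrays lay above the other 4, with a log2 change against mock of 0.52 ± 0.26 (unadjusted p = 0.0700, limma). On the other kept kidney markers, KRT8, KRT18, CDH1 and EPCAM, the groups overlapped in each comparison. The part of these values in the members' change was not tested.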

How the data were processed

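Total RNA of transfected human cells was hybridised to 6 arrays, which were grouped by the labels' descriptions and numbered by their titles. The deposited table holds 1 linear intensity for each probe set and array. How the authors summarised and scaled it is not stated in the sources used here. Values were used as deposited, as log2 of the intensity plus 9.05, the pooled lower quartile, which makes changes of dim probe sets smaller. The 62 control probe sets were left out, and 27307 probe sets with a mean log2 value of at least 5.19, the median, were kept.

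All 6 arrays entered 1 fit with a coefficient per group (limma 3.58.1, R 4.3.3, lmFit and eBayes with an intensity trend), with 3 residual degrees of freedom. Tests were two-sided, adjusted by Benjamini-Hochberg over the kept probe sets, at a threshold of 0.05. The fit was tested on simulated data. Errors are standard errors, and the number of arrays limits their precision.

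Members and lists were chosen with earlier results of these data known. Named members were those with the 4 highest and 4 lowest moderated statistics per comparison at the brightest kept probe set, genes with 3 or more probe sets, the MRPS18 paralogs, MRPS30, MRPS36, the pseudogene and the antisense RNA. In each list of other genes the ends of hIMP1 Dmut and of hIMP1 wt against mock were named. Alternatives were other scalings, offsets, filters, priors, probe set rules, the replicate number as a block, and leaving out arrays. Proteins were not used here.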

Additional observations from a re-analysis of the deposited data

How the results depend on the processing

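No member probe set was called under any alternative run (limma). The median change of the kept members in hIMP1 Dmut against mock stayed below 0 throughout, between −0.15 and −0.04 with 1 array left out and at −0.18 with median scaling. The array medians were 30.6 and 33.7 in hIMP1 Dmut and 32.6 and 28.6 in mock. Median scaling thus moves all probe sets in this comparison, not the members alone, by an amount not given here. Against hIMP1 wt the median change of the kept members lay between −0.16 and −0.04 with 1 array left out. It was −0.23 with median scaling, which moves the median of all probe sets by −0.10. In hIMP1 wt against mock its sign changed: −0.0082 became 0.049 with median scaling, and it ran from −0.056 (without hIMP1 wt array 2) to 0.040 (without hIMP1 wt array 1) with 1 array left out, being 0.023 without mock array 2. The counts of lower genes and of genes with groups apart were added after seeing the data. The count of lower genes ran from 49 to 69 for hIMP1 Dmut against mock, from 45 to 65 against hIMP1 wt and from 20 to 53 for hIMP1 wt against mock (24 with median scaling, 20 without hIMP1 wt array 1, 25 without mock array 2). The shares of all genes in these runs are not given, so the ranges do not tell a shift of the members from a shift of all genes. With median scaling the genes apart below were 17 in place of 27 for hIMP1 Dmut against mock, with the share of all genes given above. For hIMP1 wt against mock they were 1 in place of 6. The share of all genes under that scaling is not given for this comparison, so these 2 counts are not read further. Of the named members, 402 of 408 values kept their sign. With 1 array left out, those that did not ran from −0.151 to 0.52 for MRPL19, from −0.090 to 0.484 for MRPL50 and from −0.018 to 0.448 for MRPL48 in hIMP1 Dmut against mock, from −0.041 to 0.425 for MRPL48 against hIMP1 wt, and from −0.053 to 0.431 for MRPS18A in hIMP1 wt against mock. The low values came without mock array 2, or for MRPL48 without hIMP1 Dmut array 1. MRPL52 against hIMP1 wt was −0.019 with median scaling. The cause was not tested. With the replicate number as a block, 0 members were called and the medians stayed at −0.10, −0.10 and −0.0082. Over the kept probe sets, same-numbered arrays of different groups correlated at 0.970 to 0.980, above the 2 arrays of a group at 0.963 to 0.964. Arrays thus resembled those of their number more than those of their group, and the main fit leaves the number out. Deviations of same-numbered arrays correlated at 0.20 to 0.46 between groups, but with 2 arrays a group the pairing is not settled.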

Other observations

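Of the probe sets that carry a mitochondrial ribosomal protein symbol together with another symbol, 4 were outside the rule and passed the filter. The one shared by MRPL53 and CCDC142 read 1008 and 1093 in hIMP1 Dmut, 1023 and 1141 in hIMP1 wt and 1325 and 1252 in mock, a log2 difference of −0.29 ± 0.17 for hIMP1 Dmut and −0.25 ± 0.17 for hIMP1 wt, each against mock. All 4 arrays with an hIMP1 construct lay below both mock arrays. The one shared by MRPS24 and the readthrough gene URGCP-MRPS24 read 3816 and 3529 in hIMP1 Dmut, 3515 and 4227 in hIMP1 wt and 3642 and 4377 in mock, with overlap. The one shared by MRPL51 and SPTLC1 had a log2 difference of −0.24 ± 0.24 in hIMP1 Dmut against mock. The one shared by the pseudogene MRPS31P5 and THSD1 had one of 0.0014 ± 0.25 in that comparison. None of the 4 passed the test (limma, adjusted p 1.00), and none can be assigned to a single gene.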
